A study of Mus musculus with 4 samples.

Results

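The 37 genes of the mouse mitochondrial genome were followed through a single-cell survey of the lung. They are all genes of the deposited table whose symbol starts with mt-, 37 of 57010 genes, and they comprise 2 ribosomal RNAs (rRNAs), 13 messenger RNAs (mRNAs) and 22 transfer RNAs (tRNAs). All 37 lie on the mitochondrial chromosome, written M below, and all were matched by gene identifier to the GENCODE M21 annotation of GRCm38. No cell was left out for a high mitochondrial share, which in many single-cell studies is a reason to discard it.

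Mitochondrial DNA is a small circle with a heavy and a light strand, each transcribed as a long precursor. tRNAs stand between most of the other genes, and cutting them out releases the rRNAs and mRNAs. The 12S rRNA (mt-Rnr1) and 16S rRNA (mt-Rnr2) form the core of the mitochondrial ribosome. The mRNAs encode membrane subunits of complex I, which oxidises NADH, of complex III and complex IV, which pass the electrons on to oxygen, and of the ATP synthase. The other subunits of these complexes, and all of complex II, come from nuclear genes. In the lung, alveolar type 2 (AT2) cells, which make surfactant, and ciliated cells, which power ciliary beating with ATP, are rich in mitochondria.

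The study compared C57Bl6/J mice at 8 weeks of age, and its stated subject is loss of the transcription factor p73 in chronic obstructive lung disease. The Cre_Pos group carried Shh.Cre and Flox-p73, an allele with exons 7 to 9 flanked by recombination sites, and the Cre_Neg group were Shh.Cre-negative littermates homozygous for that floxed allele. Shh is expressed by lung epithelial precursors, so Cre acts mainly in the epithelium. Lung cells of 6 mice were pooled within each group, depleted of CD45-positive cells, enriched for Epcam-positive cells, sorted as live cells and barcoded by split-pool ligation (SPLiT-seq, Parse Evercode), a kit that primes with oligo-dT and random hexamers. Cells of both pools were then divided over the same 4 sublibraries. There was therefore 1 pool for each genotype, and the 4 sublibraries are aliquots with different cells of the same pools and not replicates. No p-value could be computed. Intervals are exact 95% intervals that cover counting error only, and a difference between the pools cannot be told apart from a difference between 2 pools of mice.

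The 16579 barcodes with at least 500 genes, 7827 from Cre_Neg and 8752 from Cre_Pos, held 170768948 transcript counts (UMIs), at medians of 8726 and 8264 UMIs a cell; the study states a total of 20000 cells. Trp73, the targeted gene, was counted at 81.2, 92.7, 87.2 and 78.6 counts per 1000000 UMIs (CPM) in the 4 Cre_Neg aliquots and at 14.2, 12.6, 16.1 and 6.69 CPM in the Cre_Pos aliquots. Ciliated-like cells held most of these UMIs, and they numbered 1227 in Cre_Neg and 120 in Cre_Pos. Within them Trp73 stood at 332 and 309 CPM, Cre_Neg first. The counts cover the whole gene and not the floxed exons, so they do not show whether the exons were lost. Between sublibraries, 285 cell barcodes were shared, and each was taken as a separate cell in each sublibrary. Cells were clustered without the mitochondrial genes, and the 33 clusters were named from markers, with "-like" added. Of the classes, 23 had at least 50 cells, among them 5 clusters left unnamed and called by number. General capillary endothelium-like cells were the most numerous class, with 6117 cells, despite the enrichment for Epcam, an epithelial protein. In 11 classes both pools had at least 100 cells.

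Of the 37 genes, 9 had at least 100 UMIs in the kept cells, mt-Nd4l had 1 UMI, and 27 had none in any of the 647296 barcodes. The 27 are all 22 tRNAs and 5 mRNAs: mt-Co2 and mt-Co3 of complex IV, mt-Atp8 and mt-Atp6 of the ATP synthase, and mt-Nd3 of complex I. Thus neither mitochondrial subunit of the ATP synthase was counted in any cell. A count of 0 among the 191160309 UMIs of all barcodes allows up to 0.0157 CPM for a gene, by a floor of 3 counts. The tRNAs are 59 to 75 bases long. Short genes were rarely counted anywhere in the table, and 13 of the 775 other annotated genes of at most 75 bases had a UMI.

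The 5 mRNAs at 0 and mt-Nd4l are neighbours on M, and nearly all of this stretch also exists as a copy in nuclear DNA. A search of the annotated transcripts with BLASTN found 7 pseudogenes of at least 99% identity on chromosome 1 between 24611535 and 24616197 (GRCm38, minus strand), a span of 4663 bases in the same gene order as M:6390-11042. The match was complete and without a mismatch over 681 bases of mt-Co2 (Gm28661), 678 bases of mt-Atp6 (Gm10925), 783 bases of mt-Co3 (Gm28437) and 294 bases of mt-Nd4l (Gm10222). It had 1 mismatch over 345 bases of mt-Nd3 (Gm28438). For mt-Atp8 no annotated copy was found at the minimum of 50 aligned bases. Its last 43 bases are shared with mt-Atp6 and lie in the match of Gm10925. The gene lies between mt-Co2 and mt-Atp6, whose copies are 233 bases apart on both chromosomes. The match ends inside a gene on either side, and in mt-Nd4 it ends where the annotated pseudogene ends. Nuclear DNA outside annotated transcripts was not searched. It covers the last 483 of 1545 bases of mt-Co1 (Gm29216, 1 mismatch) and the first 876 of 1378 bases of mt-Nd4 (Gm28439, no mismatch), and both of these genes were counted.

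The bases that tell gene and copy apart are shown because they are the only differences found in these 2 matches. In mt-Nd3 the substitution is T3C and in mt-Co1 it is A1066T, with the mitochondrial base first and positions counted from 1 at the 5′ end of the gene. Capitals mark the differing base. The sequences are those of the GENCODE M21 transcripts, at M:9459-9476 and chr1:24613102-24613119 for the first pair and at M:6390-6408 and chr1:24616170-24616188 for the second, the copies being read on the minus strand.
mt-Nd3: atTaacctgtacactgtt
Gm28438: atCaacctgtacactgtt
mt-Co1: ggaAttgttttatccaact
Gm29216: ggaTttgttttatccaact
The next sequence, M:11028-11057 on the plus strand, is the place inside mt-Nd4 where the match to the annotated copy stops. The last 15 matched bases are in capitals.
mt-Nd4: TACTCCTCAGTTAGCcacatagcacttgtt

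The mitochondrial genes also share bases with each other, in 9 pairs. Of these pairs 4 join mRNAs, and the 2 among them that involve counted genes are shown because a read lying inside an overlap cannot be given to a single gene. The pair mt-Nd4l and mt-Nd4 shares 7 bases, in capitals, at M:10152-10188 (plus strand).
mt-Nd4l and mt-Nd4: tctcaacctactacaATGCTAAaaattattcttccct
The pair mt-Nd5 and mt-Nd6 shares 14 bases at M:13537-13565, and mt-Nd6, the only mRNA on the light strand, is read in the opposite direction.
mt-Nd5 and mt-Nd6: ttatcttatactcaaTTAATCTCGAGTAA
Whether counting used the strand is not stated in the labels or file headers, so UMIs of mt-Nd6 and of heavy-strand RNA across it cannot be told apart. The largest overlap, 43 bases, joins mt-Atp8 and mt-Atp6, and mt-Atp6 shares 1 base with mt-Co3; these 3 genes are all at 0.

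**Figure D1:**
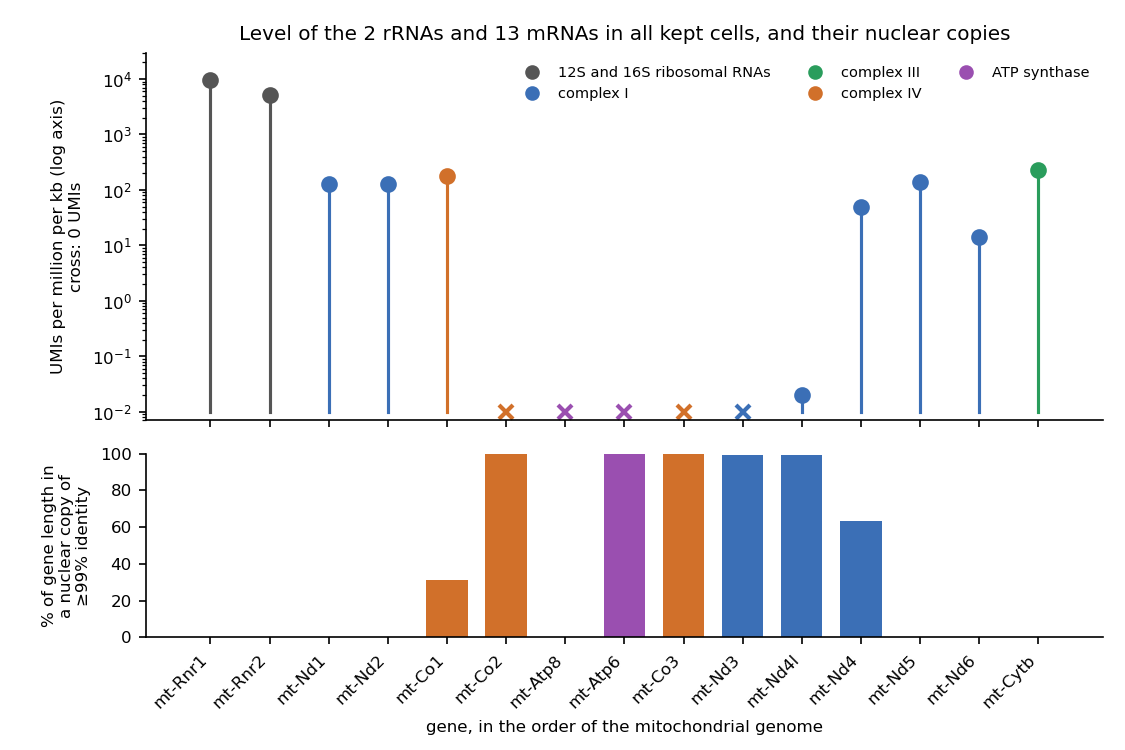
Top, level of the 2 rRNAs and 13 mRNAs in all kept cells, in CPM per kilobase on a log axis, with genes in the order of the mitochondrial genome and crosses for genes with 0 UMIs. Bottom, percent of each gene's length that lies in a nuclear copy of at least 99% identity, from matches of at least 50 bases. mt-Co2, mt-Atp6, mt-Co3, mt-Nd3 and mt-Nd4l are covered by 98.99 to 99.87% and hold 0 or 1 UMI. mt-Nd4 is covered by 63.6% and mt-Co1 by 31.3%, and the others have no such match. The 43 bases that mt-Atp8 shares with mt-Atp6 are not drawn for mt-Atp8.

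The nuclear copies held few UMIs. Over all barcodes the 7 copies had 175 UMIs, of which Gm28438 had 108 and Gm29216 had 31, against 49427 UMIs on mt-Co1 alone. How reads that match several places were treated is not stated in the labels or file headers, and its part in the 0 counts was not tested. For mt-Nd4 and mt-Co1 the level per kilobase depends on the length that the UMIs are divided by. Over the whole gene mt-Nd4 stood at 49.2 CPM per kilobase. With all its UMIs divided by the 502 bases outside the annotated copy, it stood at 135. For mt-Co1 these values were 175 over the whole gene and 254 with 1062 bases. The values outside the copy take no UMI to come from the copied bases, which was not tested. Less similar copies exist for mt-Co1 (Gm13340, 97.6% identity), mt-Nd2 (Gm13339, 96.7%), mt-Nd6 (Gm11408, 93.6%), mt-Cytb (Gm11410, 92.9%) and mt-Nd5 (Gm11407, 92.3%). None of at least 90% identity over 50 bases was found for mt-Rnr1, mt-Rnr2 and mt-Nd1.

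Together the 37 genes had 3193528 UMIs in the kept cells, 1.87% of all. The rRNAs made up 3003172 of them. mt-Rnr1 (M:70-1024) held 49.9% of the mitochondrial UMIs at 9776 CPM per kilobase, and mt-Rnr2 (M:1094-2675) held 44.1% at 5215 CPM per kilobase. In the 4 sublibraries mt-Rnr1 stood at 9670, 9449, 9486 and 8682 CPM and mt-Rnr2 at 8522, 8274, 8408 and 7767 CPM. Both were lowest in sublibrary 4.

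All 13 mRNAs together had 190356 UMIs. Per kilobase of whole gene, mt-Cytb (M:14145-15288), the cytochrome b of complex III and its only mitochondrial subunit, was highest at 232 CPM, followed by mt-Co1 (M:5328-6872), the catalytic subunit of complex IV, at 175. The complex I subunits mt-Nd5 (M:11742-13565), mt-Nd2 (M:3914-4951) and mt-Nd1 (M:2751-3707) stood close together at 138, 127 and 126. Next came mt-Nd4 (M:10167-11544) at 49.2 and mt-Nd6 (M:13552-14070) at 14.3. The order would change if no UMI came from the copied bases, which was not tested. With all UMIs divided by the bases outside the near-identical copy, mt-Co1 stood at 254, above mt-Cytb, and mt-Nd4 at 135, near mt-Nd5. The 4 sublibraries differed little, with mt-Cytb at 265, 269, 268 and 259 CPM and mt-Nd6 at 7.27, 7.23, 7.80 and 7.42 CPM.

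The mitochondrial share differed widely between cell classes. It was 3.31% of UMIs in alveolar macrophage-like cells (3.41, 3.32, 3.32 and 3.20% in the sublibraries), 3.30% in cluster 21 (3.40, 3.46, 3.33 and 2.45%) and 3.13% in secretory-like cells (3.12, 3.26, 3.04 and 3.13%). Cluster 21 carried ciliated and deuterosomal markers but was shallow, with a median of 1350.5 UMIs. The ranges of these 3 overlapped, so their order is not fixed. The macrophage-like value rests almost wholly on Cre_Neg, with 202 of 206 cells.

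The lowest shares were those of neutrophil-like cells at 0.841% (0.933, 0.737, 1.00 and 0.718%), aerocyte capillary endothelium-like cells at 0.831% (0.868, 0.809, 0.851 and 0.798%) and general capillary endothelium-like cells at 0.784% (0.804, 0.773, 0.807 and 0.756%). The 3 ranges overlapped again. Every aliquot of these 3 classes lay below every aliquot of the 3 classes at the top.

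Among the other classes, most epithelial ones stood above the endothelial and stromal ones. AT2-like cells had 2.96%, cluster 11 2.91%, Krt8 transitional-like cells 2.55%, ciliated-like cells 2.23% and AT1-like cells 1.79%, while neuroendocrine-like cells were lower at 1.47%. Cluster 11 passed AT2 markers together with the secretory genes Scgb1a1, Cyp2f2 and Cbr2. Venous endothelium-like cells had 1.09%, alveolar fibroblast-like cells 0.991% and pericyte-like cells 0.849%. T cell-like cells had 1.85% and B cell-like cells 1.79%. Within a pool, most neighbours in this order had overlapping aliquots. Krt8 transitional-like and ciliated-like cells were separate in both pools.

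**Figure D2:**
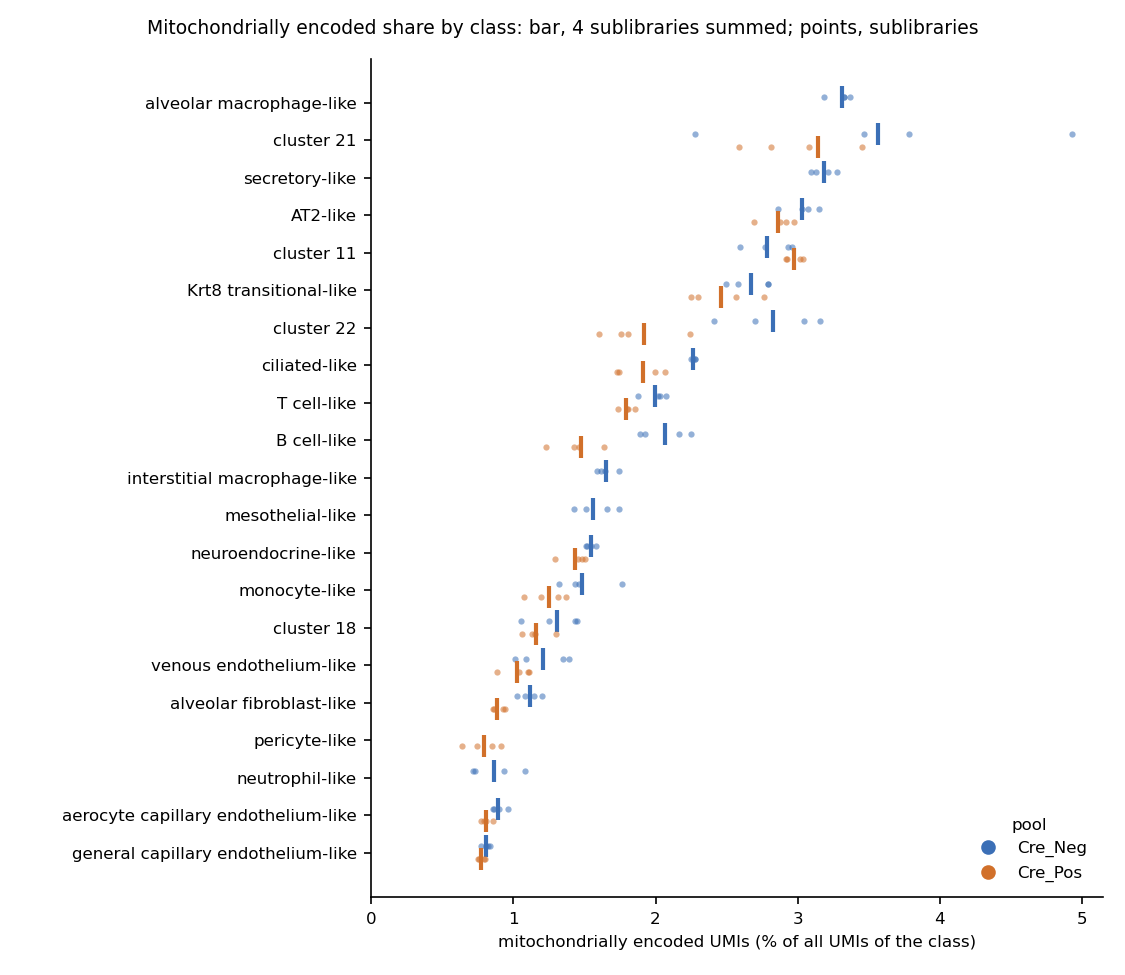
Mitochondrially encoded UMIs in percent of all UMIs of a class, for the classes with at least 50 cells in a pool; bars give the sum over the sublibraries and points the 4 sublibraries, by pool. The shares run from 0.775% in Cre_Pos general capillary endothelium-like cells to 3.56% in the Cre_Neg cells of cluster 21, and in 11 classes with at least 100 cells in each pool only cluster 11 has the higher bar in Cre_Pos.

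Part of this order followed the nuclear genes of oxidative phosphorylation. Across the 23 classes the summed CPM of the mitochondrial genes and of the nuclear subunits of complexes I to IV and the ATP synthase had a Spearman rho of 0.79 and a Pearson r of 0.59 on log2 values. This is a description of classes that share libraries and denominators. The relation was not particular to these subunits. Mitochondrial stress response genes had a rho of 0.71 and immediate early genes, described below, one of -0.69, while glycolysis genes had 0.24. The levels of the mitochondrial genes and the nuclear subunits did not keep step. Mitochondrial CPM over nuclear CPM was 18.9 in AT2-like and 17.9 in alveolar macrophage-like cells but 6.17 in aerocyte and 6.13 in general capillary endothelium-like cells. Nuclear CPM itself was closer, 1560 in AT2-like and 1279 in general capillary endothelium-like cells.

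The 2 rRNAs did not move together between classes. In ciliated-like cells mt-Rnr1 had 2.12 times the UMIs of mt-Rnr2 in Cre_Neg (2.16, 2.15, 2.06 and 2.11 in the sublibraries) and 2.17 times in Cre_Pos (2.31, 2.12, 2.18 and 1.98). In AT2-like cells the ratio was 0.979 and 1.01. Both classes had similar mt-Rnr1, at 14177 CPM in ciliated-like and 13738 CPM in AT2-like cells. They differed in mt-Rnr2, at 6665 against 13853 CPM.

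Secretory-like cells, cluster 21 and cluster 11 also had a high ratio of 12S to 16S. It was 1.76 in Cre_Neg secretory-like cells (1.66, 1.94, 1.67 and 1.82), 1.67 and 1.46 in cluster 21, and 1.34 and 1.11 in cluster 11, for Cre_Neg and Cre_Pos. Krt8 transitional-like cells stood at 1.03 and 1.04 and general capillary endothelium-like cells at 0.945 and 0.98. The ratio was lowest in cluster 27, which carried mast cell and basophil markers, at 0.629 over both pools. It was 0.742 and 0.752 in B cell-like, 0.727 and 0.711 in monocyte-like and 0.754 in Cre_Neg neutrophil-like cells, while T cell-like cells stood at 1.03 and 0.988. Barcodes of at most 50 UMIs, taken here as free RNA, had 1.02 and 0.977. Both ciliated-like clusters showed the high ratio, at 2.12 and 2.26.

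The mRNA part of the mitochondrial UMIs also varied by class. In the Cre_Neg pool it was 8.32% in cluster 11, 7.24% in secretory-like, 7.12% in AT2-like and 6.53% in ciliated-like cells. It was 5.16% in general capillary endothelium-like, 3.91% in alveolar macrophage-like and 1.30% in neutrophil-like cells. Alveolar macrophage-like cells thus had among the most mitochondrial RNA and a small mRNA part. Neutrophil-like cells had 20 mRNA UMIs in all, and none of mt-Nd4 or mt-Nd6. The 63 cells had a median of 2871 UMIs, and lower levels of these 2 genes were not detectable at this depth.

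**Figure D3:**
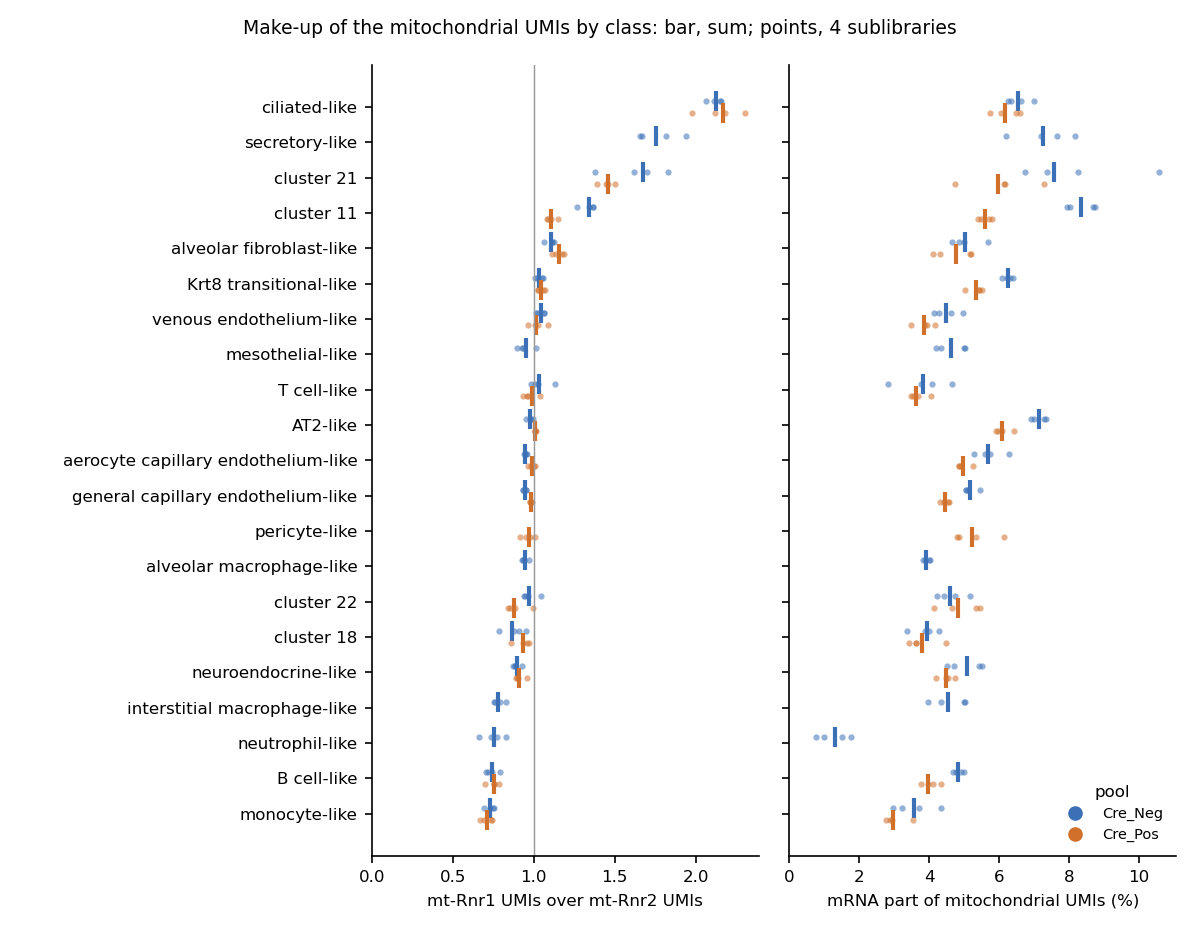
Left, UMIs of mt-Rnr1 over UMIs of mt-Rnr2 by class and pool, with a line at 1. Right, UMIs of the 13 mRNAs in percent of the mitochondrial UMIs. Bars are sums and points the 4 sublibraries. Ciliated-like cells stand alone above 2 on the left, and the Cre_Neg bar lies right of the Cre_Pos bar on the right in all classes drawn with both pools except cluster 22.

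Single genes spread further between classes than the rRNAs did. mt-Nd5 ranged from 15.3 CPM in neutrophil-like to 571 CPM in secretory-like cells and mt-Cytb from 30.6 to 557 CPM in the same classes. mt-Co1 ranged from 20.4 CPM in neutrophil-like to 503 CPM in AT2-like cells. The neutrophil-like values rest on 3 UMIs of mt-Nd5 (interval 3.16 to 44.8 CPM), 6 of mt-Cytb (11.2 to 66.7) and 4 of mt-Co1 (5.56 to 52.3). mt-Nd2 reached 289 CPM in secretory-like and mt-Nd1 207 CPM in AT2-like cells. mt-Rnr1 ran from 3569 CPM in neutrophil-like cells to 18691 CPM in cluster 21, and mt-Rnr2 from 3797 CPM in general capillary endothelium-like to 16288 CPM in alveolar macrophage-like cells. By complex, complex I mRNAs made up 3.78% of mitochondrial UMIs in secretory-like cells, complex III 1.78% in the same cells and complex IV 1.70% in AT2-like cells, each the highest class.

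Between the pools, the mitochondrial share of all kept cells was 2.20% in Cre_Neg (2.26, 2.21, 2.22 and 2.09%) and 1.57% in Cre_Pos (1.63, 1.58, 1.60 and 1.47%), with no overlap of the aliquots. Much of that gap moved with the make-up of the pools: with the class levels of Cre_Neg and the class make-up of Cre_Pos the share was 1.69%, and with the reverse it was 2.00%. Comparisons were therefore made within classes.

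In AT2-like cells, 1945 in Cre_Neg and 1280 in Cre_Pos, the summed mRNAs were lower in Cre_Pos while the rRNAs were nearly level. The mRNAs went from 2160 CPM (Cre_Neg) to 1743 CPM (Cre_Pos), a log2 ratio of -0.31 (interval -0.33 to -0.29). In the 4 sublibraries the ratio was -0.30, -0.33, -0.32 and -0.28. The rRNAs gave -0.07 in the sum, with all aliquots between -0.07 and -0.06. The mRNA part of the mitochondrial UMIs was 6.90, 7.26, 7.0 and 7.34% in the aliquots of Cre_Neg, against 5.96, 6.09, 5.91 and 6.41% in those of Cre_Pos, without overlap.

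Within complex I, mt-Nd4, a proton-pumping subunit, differed most in AT2-like cells. It stood at 128, 129, 124 and 131 CPM in the aliquots of Cre_Neg, against 88.8, 90.2, 91.8 and 95.05 CPM in those of Cre_Pos, a log2 ratio of -0.49 (-0.57 to -0.40). mt-Nd5, another pumping subunit, had 529, 537, 521 and 499 CPM against 412, 404, 401 and 384 CPM, a ratio of -0.39 (-0.43 to -0.34). The Cre_Neg and Cre_Pos aliquots did not overlap for either gene. mt-Nd2 had 247, 247, 250 and 225 CPM against 201, 195, 182 and 199 CPM, a ratio of -0.32. mt-Nd1, which sits where the membrane arm of complex I meets the matrix arm, had 224, 225, 217 and 226 CPM against 195, 184, 179 and 193 CPM, a ratio of -0.25. These 2 were also lower in Cre_Pos in every aliquot.

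The light-strand gene mt-Nd6 went the other way in the sum. It had 10.0, 12.1, 11.8 and 9.21 CPM in the aliquots of Cre_Neg, against 15.02, 11.2, 16.2 and 15.2 CPM in those of Cre_Pos, a log2 ratio of 0.38 (0.13 to 0.63) from 255 and 274 UMIs. The groups overlapped, and in sublibrary 2 the Cre_Pos value was the lower one. The gene was not counted as 1.2-fold higher with every cell weighted equally, with Y-linked UMIs only, or with cells thinned to 2000 UMIs. The count takes only genes with at least 100 UMIs. With Y-linked UMIs only the ratio of mt-Nd6 was still 0.36, and with Xist UMIs only it was 0.47.

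For complex III, mt-Cytb had 489, 509, 495 and 478 CPM in Cre_Neg against 402, 386, 408 and 383 CPM in Cre_Pos, a ratio of -0.33 (-0.37 to -0.28). For complex IV, mt-Co1 had 548, 540, 533 and 531 CPM against 457, 479, 444 and 456 CPM, a ratio of -0.22 (-0.26 to -0.19). Both were lower in all 4 aliquots without overlap. Among the rRNAs, mt-Rnr1 went from 13927 to 13510 CPM, a ratio of -0.04, and mt-Rnr2 from 14232 to 13396 CPM, a ratio of -0.09.

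At a fold of 1.2 or more, among genes with at least 100 UMIs, 4 of the 9 counted members were lower in AT2-like cells (mt-Nd2, mt-Nd4, mt-Nd5 and mt-Cytb), beside 7.42% of the 11574 genes tested, and 1 (mt-Nd6) was higher, beside 8.23% of all genes. The median log2 ratio was -0.25 over the members and 0.01 over all genes tested. At a fold of 1.5 no member was lower or higher. The median depth of these cells was 11420 UMIs in Cre_Neg and 14476 in Cre_Pos, and the mitochondrial share of single cells had a Spearman rho with depth of -0.32 and -0.20 within the class, as a description. With the class split by depth into 3 parts of equal size, the mRNA ratio was -0.38, -0.18 and -0.20 from the shallowest to the deepest cells, and the rRNA ratio was -0.12, 0.04 and -0.01. The part of depth in the result was otherwise not tested.

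Cells with a very high mitochondrial share were mostly AT2-like cells of Cre_Neg. Over 15% were 38 cells in all, 34 of them in Cre_Neg and 4 in Cre_Pos. AT2-like cells made up 28 and 4 of these, 1.44% (0.959 to 2.07%) and 0.313% (0.0852 to 0.798%) of the class. They were shallow, with median depths of 1488 and 1942.5 UMIs. Between 5 and 15% lay 8.74% of Cre_Neg and 5.63% of Cre_Pos AT2-like cells. Their median mitochondrial UMIs, 362 and 465.5, were near those of the cells at or below 5%, 339 and 401. With cells at or below 5% alone the mRNA ratio of AT2-like cells was -0.27.

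In ciliated-like cells, with 1227 and 120 cells, the rRNAs and mRNAs were both lower in Cre_Pos. The mRNAs stood at 1480 and 1178 CPM, a log2 ratio of -0.33 (aliquots -0.28, -0.50, -0.14 and -0.49), and the rRNAs gave -0.24 (-0.12, -0.36, -0.19 and -0.39). mt-Nd5 had 337, 343, 330 and 364 CPM in the aliquots of Cre_Neg, against 276, 204, 297 and 212 CPM in those of Cre_Pos, a ratio of -0.43 (-0.55 to -0.31). mt-Cytb had 347, 367, 347 and 377 CPM against 298, 249, 328 and 247 CPM, a ratio of -0.32. The aliquots of both genes were separate, but those of Cre_Pos were wide, at 120 cells over 4 aliquots.

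mt-Co1 gave -0.38 and mt-Nd2 -0.36 in ciliated-like cells, while mt-Nd1, at 156 and 150 CPM, gave -0.06 with an interval of -0.22 to 0.10. mt-Nd4 gave -0.24 and mt-Nd6 -0.63, the latter from 135 and 10 UMIs. Of the 9 counted members 5 were at least 1.2-fold lower and none was higher, beside 15.9% of the 11014 genes tested that were lower. The count was 8 without sublibrary 1 and 3 without sublibrary 2, and 8 with median-of-ratios size factors or with every cell weighted equally. The Cre_Pos cells were also nearly all of 1 sex: 100 held Y-linked but no Xist UMIs, and 1 had the reverse, while Cre_Neg had 179 and 896. In the cells with Y-linked UMIs only, the ratio of all 37 genes was -0.27, against -0.25 in all ciliated-like cells.

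In general capillary endothelium-like cells, with 2002 and 4115 cells, levels were low but the pattern resembled that of AT2-like cells in size. The mRNAs stood at 417 and 345 CPM, a log2 ratio of -0.27 (aliquots -0.33, -0.28, -0.20 and -0.30), and the rRNAs gave -0.05 (-0.07, -0.08, -0.03 and -0.03). mt-Nd5 had 76.6, 70.2, 70.7 and 70.0 CPM in Cre_Neg against 51.5, 53.0, 59.5 and 57.3 CPM in Cre_Pos, a ratio of -0.38. mt-Cytb had 119, 111, 114 and 117 CPM against 96.7, 89.6, 99.2 and 91.3 CPM, a ratio of -0.29. Neither gene's aliquots overlapped. mt-Nd4 gave -0.34, mt-Nd1 -0.32 (0.06 in cells with Y-linked UMIs only), mt-Co1 -0.19, mt-Nd2 -0.16 and mt-Nd6 -0.26, the last with an interval of -0.81 to 0.30. Of the 9 counted members 4 were at least 1.2-fold lower, beside 10.7% of the 10894 genes tested.

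**Figure D4:**
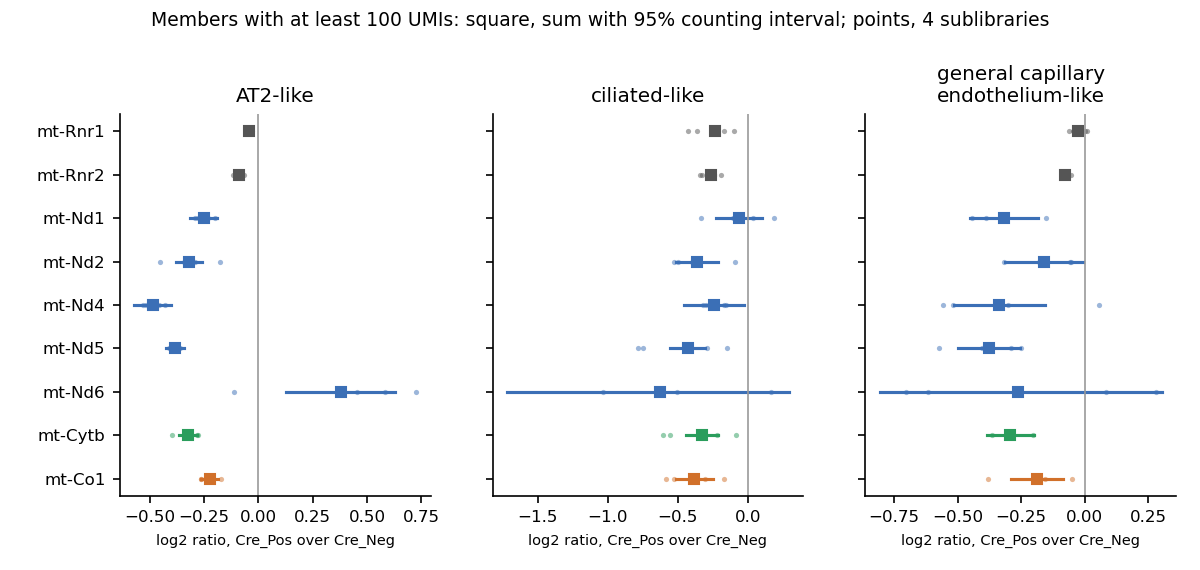
Log2 ratio, Cre_Pos over Cre_Neg, of each member with at least 100 UMIs in AT2-like, ciliated-like and general capillary endothelium-like cells; squares are sums with 95% counting intervals and points the 4 sublibraries, on an axis of its own in each panel. The rRNAs lie near 0 in the AT2-like and general capillary endothelium-like panels, mt-Nd5 and mt-Cytb lie below 0 in all 3, and mt-Nd6 lies above 0 in AT2-like cells alone.

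The lower mRNA sum was seen in all 11 classes compared, in 4 of 4 aliquots each. The log2 ratio was -0.77 in B cell-like, -0.50 in monocyte-like, -0.47 in cluster 11, -0.45 in venous endothelium-like and -0.40 in alveolar fibroblast-like cells. It was -0.35 in Krt8 transitional-like and in aerocyte capillary endothelium-like cells and -0.29 in neuroendocrine-like cells. The rRNAs were lower in 4 of 4 aliquots in 8 classes. Their ratio was closer to 0 than that of the mRNAs in every class, ranging from -0.47 in B cell-like to 0.14 in cluster 11.

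By gene, mt-Nd5 and mt-Cytb were at least 1.2-fold lower in 11 of 11 classes, mt-Nd2 in 9 of 10 classes where it had 100 UMIs, mt-Nd4 in 8 of 9, mt-Co1 in 6 of 11 and mt-Nd1 in 5 of 11. For mt-Nd5 the ratio ran from -0.98 in monocyte-like to -0.32 in aerocyte capillary endothelium-like cells, and for mt-Cytb from -0.55 in B cell-like to -0.29 in general capillary endothelium-like cells. mt-Nd1 was higher in 1 class, venous endothelium-like cells, at 0.15 with an interval of -0.30 to 0.61. mt-Rnr1 was 1.2-fold lower in 2 of 11 classes, and so was mt-Rnr2, which was 1.2-fold higher in cluster 11. The classes are not independent of each other in this, since they come from the same 2 pools.

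Read against all genes, the share of members that were at least 1.2-fold lower stood above the background in each class. It was 8 of 8 counted members in B cell-like cells beside 18.5% of genes, 7 of 8 in alveolar fibroblast-like cells beside 19.3%, 6 of 8 in aerocyte capillary endothelium-like cells beside 10.4%, and 5 of 8 in Krt8 transitional-like cells beside 13.4%. Neuroendocrine-like cells had 4 of 8 beside 15.5%, venous endothelium-like cells 4 of 7 beside 17.7% and monocyte-like cells 3 of 6 beside 16.5%. Cluster 11 had 5 of 8 lower beside 17.8%, and 1 of 8 higher beside 23.1%. In the classes other than AT2-like cells and cluster 11 no counted member was 1.2-fold higher, beside 8.07% of genes in general capillary endothelium-like and 25.5% in B cell-like cells. The members are read from the same molecules and do not vary independently.

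In B cell-like cells both kinds of RNA were lower. mt-Rnr2 had 11945, 10710, 11854 and 10558 CPM in the aliquots of Cre_Neg, against 7987, 8847, 8069 and 6691 CPM in those of Cre_Pos, a log2 ratio of -0.48. mt-Nd5 had 236, 160, 254 and 206 CPM against 124, 127, 99.4 and 105 CPM, a ratio of -0.86. There was no overlap in either gene. B cells carry CD45, and the suspensions had been depleted of CD45-positive cells.

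Cluster 11 stood apart in its rRNAs. mt-Rnr2 had 11906, 10096, 11557 and 10691 CPM in Cre_Neg and 13232, 13721, 13143 and 13190 CPM in Cre_Pos, which gives a log2 ratio of 0.29 (0.27 to 0.31), while mt-Rnr1 gave 0.01. mt-Nd2 had 312, 279, 315 and 289 CPM against 178, 168, 158 and 163 CPM, a ratio of -0.82 (-0.97 to -0.67). The aliquots of both genes were separate, with mt-Rnr2 higher and mt-Nd2 lower in Cre_Pos. In this cluster of mixed AT2 and secretory markers the ratio of 12S to 16S also differed between the pools, at 1.34 and 1.11. mt-Nd6, with 22 and 77 UMIs, stood at 9.16 and 17.3 CPM.

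**Figure D5:**
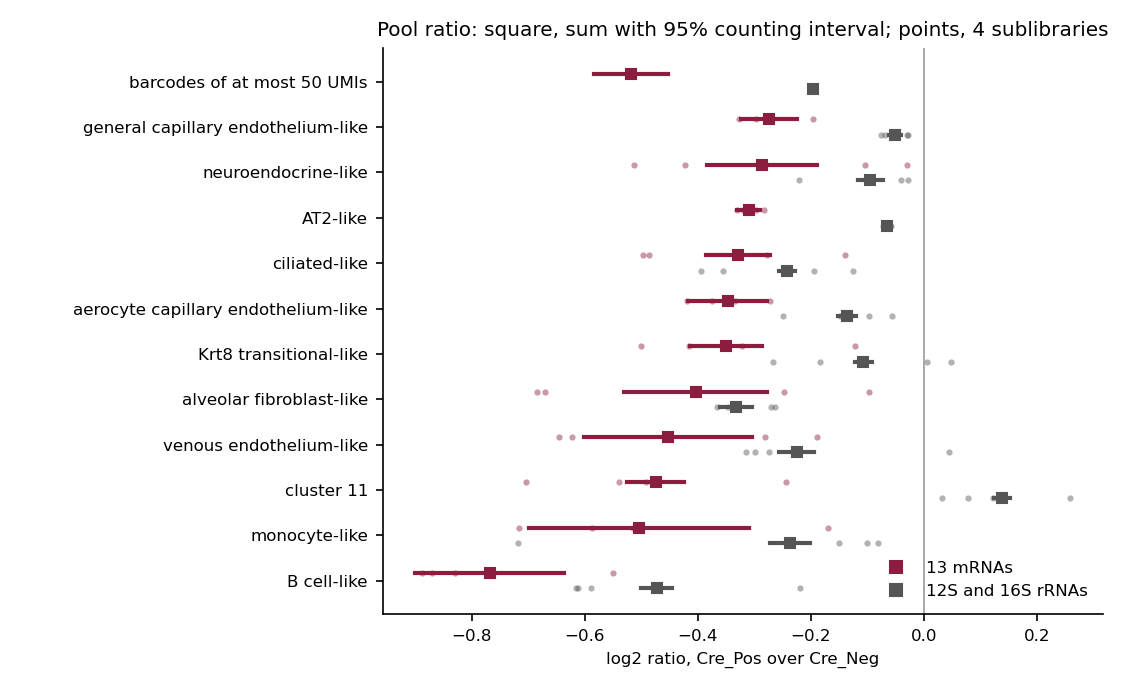
Log2 ratio, Cre_Pos over Cre_Neg, of the summed 13 mRNAs and of the 12S and 16S rRNAs in the 11 classes with at least 100 cells in each pool and in barcodes of at most 50 UMIs; squares are sums with 95% counting intervals and points the 4 sublibraries. The mRNA square lies left of the rRNA square in every row, from -0.77 in B cell-like to -0.27 in general capillary endothelium-like cells. In the barcodes of at most 50 UMIs, which were not split by class, it lies at -0.52.

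The difference was not limited to classes in which Shh was seen. Shh had no UMI in either pool in B cell-like, monocyte-like, alveolar fibroblast-like, venous, aerocyte and general capillary endothelium-like cells. With a floor of 3 counts this allows up to 0.10 CPM in Cre_Pos general capillary endothelium-like cells and up to 3.17 CPM in Cre_Neg monocyte-like cells. It stood at 9.95 and 7.28 CPM in AT2-like cells and at 37.5 and 31.8 CPM in cluster 11. Shh UMIs at 8 weeks do not show where Cre acted earlier.

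Free RNA moved in the same direction. In barcodes of at most 50 UMIs the mRNAs went from 776 CPM in Cre_Neg to 542 CPM in Cre_Pos, and their log2 ratio was -0.52 (-0.58 to -0.45), and the rRNAs gave -0.20. The mitochondrial share there was 1.91 and 1.65%. Barcodes over 50 UMIs but below 500 genes gave -0.50 and -0.07. Neither set of barcodes was split by class, unlike the ratios within classes above. All kept cells summed in the same way gave -0.74 for the mRNAs and -0.47 for the rRNAs. The part of the make-up of the pools in these ratios was not tested. Free RNA thus held more mitochondrial mRNA per UMI than general capillary endothelium-like cells did, at 417 and 345 CPM, and less than AT2-like cells. Its part in the ratios was not tested.

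First-round wells gave a finer view, although all wells of a genotype were filled from 1 suspension. In AT2-like cells the mRNA part of the mitochondrial UMIs had a median of 6.69% over 22 Cre_Neg wells with at least 5 cells (5.71 to 9.29%) and of 6.01% over 22 Cre_Pos wells (3.95 to 7.04%). In general capillary endothelium-like cells it was 4.98% over 22 wells (3.79 to 6.94%) and 4.45% over 21 wells (3.30 to 5.29%). The medians were apart and the ranges overlapped.

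Pools were also compared within cells of 1 sex. The mRNA ratio of AT2-like cells was -0.30 in cells with Xist but no Y-linked UMIs, 1379 and 1046 cells, and -0.30 in cells with the reverse, 350 and 123 cells. The rRNA ratio was -0.02 and -0.18 in these cells. Within a pool, cells with Y-linked UMIs had more mitochondrial RNA than cells with Xist UMIs by 0.12 on the log2 scale in Cre_Neg AT2-like cells, and less by -0.03 in Cre_Pos. General capillary endothelium-like cells gave 0.11 and -0.06.

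The nuclear genes of the same complexes did not share the lower level in AT2-like cells. List members with at least 20 UMIs are counted here and in the lists below. The percentages of all genes beside them cover genes with at least 100 UMIs, so the minimums are unlike. Of 37 nuclear complex I genes 20 had a log2 ratio below 0 and 17 above, with a median of -0.06; 3 were at least 1.2-fold lower, beside 7.42% of all genes, and 1 was higher. The lowest were Ndufs7 at -0.43 and Ndufa7 at -0.36, and the highest were Ndufb10 at 0.23 and Ndufa8 at 0.21. For complex II, which has no mitochondrial gene, 1 of 4 was below 0, and Sdhd was 1.2-fold higher at 0.50 (5.00 and 7.08 CPM).

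Nuclear complex III had a median of -0.05 over 9 genes, complex IV -0.03 over 13 genes and the ATP synthase 0.03 over 18 genes, and none of their members was 1.2-fold lower or higher. The extremes were Uqcrc1 at -0.13 and Cyc1 at 0.17, Cox6a1 at -0.17 and Cox6b1 at 0.20, and Atp5k at -0.25 and Atp5mpl at 0.17. All these ratios lay closer to 0 than that of mt-Cytb, mt-Nd2, mt-Nd4 or mt-Nd5.

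In ciliated-like cells the nuclear lists were level by their medians, at 0.02 for complex I, 0.13 for complex III, -0.01 for complex IV and 0.01 for the ATP synthase. In general capillary endothelium-like cells most of their members were below 0. Of 37 complex I genes 27 were below 0 with a median of -0.12, of 13 complex IV genes 10 with -0.12, and of 18 ATP synthase genes 14 with -0.17. At least 1.2-fold lower were 6, 3 and 6 of them, beside 10.7% of all genes. Ndufa1 at -0.73, Cox7b at -0.37 and Atp5e at -0.51 were the lowest, and Ndufb4 at 0.48, Cox6b1 at 0.08 and Atp5o at 0.43 were high; Atp5o stands on 2 gene identifiers, and the other gave -0.17.

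Genes that copy and transcribe mitochondrial DNA were for the most part level or higher. In AT2-like cells the 17 genes had a median of 0.11, with 12 above 0. Polg, the mitochondrial DNA polymerase, was the lowest, at 47.4 and 36.9 CPM (-0.36, -0.50 to -0.22), and Polrmt, the mitochondrial RNA polymerase, was the highest, at 8.80 and 10.6 CPM (0.27, -0.01 to 0.56). In ciliated-like cells 10 of 16 genes were at least 1.2-fold higher, beside 18.8% of all genes with at least 100 UMIs. There Polg gave 0.44, and the median was 0.35. In general capillary endothelium-like cells it was 0.19 over 17 genes. Factors that process and degrade mitochondrial RNA had medians of 0.06, -0.00 and 0.02 in these 3 classes, and the 79 genes of the mitochondrial ribosome had 0.00, 0.03 and -0.01.

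Genes of the mitochondrial stress response were higher in AT2-like cells of Cre_Pos, with a median of 0.27. Of 15 genes 8 were at least 1.2-fold higher and none lower, beside 8.23% higher of all genes with at least 100 UMIs. Asns, which makes asparagine, went from 3.93 to 6.72 CPM (0.77, 0.38 to 1.17) and Atf5, a regulator of the mitochondrial unfolded protein response, from 6.62 to 10.2 CPM (0.62, 0.31 to 0.93). Hspe1, a mitochondrial chaperonin, gave -0.16 and Sesn2 -0.18. In ciliated-like cells the median of the list was -0.23, with Hspe1 at -0.63 and Hspd1 at -0.32, and in general capillary endothelium-like cells it was -0.05. These lists were put together with earlier results of these data known.

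Regulators of mitochondrial biogenesis were near level by their medians of 0.03, 0.07 and 0.06 in the 3 classes. Ppargc1b, a coactivator, gave 0.51 in AT2-like cells (14.1 and 20.1 CPM) and Ppargc1a -0.19 in ciliated-like cells (111 and 97.3 CPM). Glycolysis genes had medians of 0.11, 0.07 and 0.12, with 4 of 19 at least 1.2-fold higher in AT2-like cells, beside 8.23% of all genes. RNAs retained in the nucleus had medians of 0.02, -0.01 and 0.02. Malat1, at 16574 and 18240 CPM, gave 0.14 in ciliated-like cells.

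Immediate early genes, which rise when tissue is dissociated, differed between the pools in a way that changed with the class. Their median was -0.21 in AT2-like, -0.60 in ciliated-like and 0.54 in general capillary endothelium-like cells. In the last, Hspa1b, a heat shock chaperone gene, went from 11.9 to 42.1 CPM (1.82), and Hspa1a, of the same kind, gave 1.70. In ciliated-like cells Atf3 went from 131 to 38.5 CPM (-1.76) and Fosb gave -1.62. The mRNA ratio of the mitochondrial genes was below 0 in all 3 of these classes, and the part of handling in it was not tested. Haemoglobin RNA, a mark of lysed red cells, did not reach 20 UMIs for any of its 4 genes in these classes.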

How the data were processed

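UMI counts per gene and barcode, with a table of genes and a table of barcodes that names pool and sublibrary, were deposited by the authors without normalization. The submitters' processing notes name GRCm39, while the deposited gene table names mm10; aligner, handling of reads with several matches and strand setting were not given in the sources used here. Barcodes with at least 500 genes were kept, with no limit on mitochondrial share, and 178 cells called as doublets by Scrublet (1.07%) were left in. Cells were clustered with scanpy 1.11.5 and leidenalg 0.10.2 (3000 variable genes, members left out, 30 components, 15 neighbours, resolution 1). A cluster was named from at least 3 markers, each at least 4-fold above the median cluster and seen in 10% of cells, thresholds set after the data were seen.

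Levels are counts per 1000000 UMIs of a class (CPM). Ratios are log2 of Cre_Pos over Cre_Neg of summed UMIs, with exact conditional binomial 95% intervals (scipy 1.17.1), and shares have exact Clopper-Pearson intervals. UMIs of a cell are not independent samples of animals, so intervals and floors cover counting error only. With 1 pool for each genotype no test was made. In simulated counts of 11374 unchanged genes in AT2-like cells, the interval held the true ratio for 95.6%, and 3.38% were called 1.2-fold lower. For 50 genes simulated at a fold of 0.833 these values were 88% and 60%. The simulation held counting error only, so it says nothing about differences between cells, mice or pools. Nuclear copies were sought with BLASTN 2.17.0 (at least 90% identity over 50 bases) among GENCODE M21 transcripts. The rule for named genes was both rRNAs and the 13 mRNAs by complex, the tRNAs as a sum, and of other lists the counts, the median and extreme members with at least 100 UMIs; of the longer lists only part of the extremes is printed. The members and lists were chosen with earlier results of these data known.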

Additional observations from a re-analysis of the deposited data

Results flagged for a closer look

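In groups of 4 aliquots, 141 were examined for a value far from the other 3, and 9 had one (6.38%). Chance gives about 1 in 20 for independent groups. The groups here are not independent, because the rRNAs hold most UMIs of the 37 genes, so this is not a test. In neuroendocrine-like cells of Cre_Pos 1 aliquot had a ratio of 12S to 16S of 0.956. The mRNA part of the mitochondrial UMIs was 5.25% in 1 aliquot of Cre_Pos aerocyte capillary endothelium-like cells and 5.45% in 1 aliquot of Cre_Neg general capillary endothelium-like cells. The log2 ratio of all 37 genes was -0.23 in sublibrary 2 for B cell-like cells, -0.71 in sublibrary 1 for monocyte-like cells and 0.035 in sublibrary 3 for venous endothelium-like cells. In the same aliquots the rRNAs alone stood at -0.22, -0.72 and 0.045.

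The rRNA ratio of cluster 11 was 0.14 and above 0 in all 4 aliquots, while in 8 other classes it was below 0 in all 4. The difference between cluster 11 and those classes was not tested.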

How the results depend on the processing

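No paired analysis was possible because the values come from no test: with 1 pool for each genotype the 4 sublibraries are aliquots, and the ratios within each are given as values only. The log2 ratio of the 13 mRNAs was below 0 in all 165 values over 11 classes and their alternatives (-0.86 to -0.17). The ratio of all 37 genes was below 0 in 10 classes under these alternatives, and in cluster 11 it ran from -0.11 to 0.18. With each class split by depth into 3 parts it was above 0 in the middle part of AT2-like cells (0.028), the shallowest and middle parts of Krt8 transitional-like cells (0.056 and 0.0047) and the shallowest part of general capillary (0.015) and venous (0.026) endothelium-like cells, as well as in 2 parts of cluster 11 (0.12 and 0.25). The depth split is not among the 165 values. With it the mRNA ratio was below 0 in every part but varied. In ciliated-like cells it was -0.62, -0.12 and -0.25 from the shallowest to the deepest part. Its interval included 0 in the shallowest neuroendocrine-like part (-0.46 to 0.04) and the deepest venous endothelium-like part (-0.42 to 0.02).

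In AT2-like cells the ratio of all 37 genes, -0.08, became -0.092 with median-of-ratios size factors, -0.22 with every cell weighted equally, -0.063 with at least 1000 genes a barcode, -0.066 and -0.045 with cells of at most 15% and 5% mitochondrial UMIs, -0.055 at Leiden resolution 0.5, -0.19 and -0.039 in cells with Y-linked or with Xist UMIs only, -0.10 with cells thinned to 2000 UMIs and -0.31 over the mRNAs only. Its mRNA ratio, -0.31, became -0.46 with cells weighted equally, -0.27 at most 5% and -0.38 thinned. The Cre_Neg share, 3.03%, became 3.58% with cells weighted equally, 2.83% at most 5%, 3.22% with Y-linked UMIs only, 3.28% thinned and 0.216% over the mRNAs. The Cre_Pos share, 2.86%, became 3.08% with cells weighted equally, 3.06% thinned and 0.174% over the mRNAs. The 1 gene higher became 0 with cells weighted equally, with Y-linked UMIs only, thinned and at a fold of 1.5, where the 4 lower ones also became 0. The count takes only genes with at least 100 UMIs, and with Y-linked UMIs only the ratio of mt-Nd6 was still 0.36.

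In ciliated-like cells the Cre_Neg share, 2.27%, became 2.32% over UMIs outside the members, 2.29% with size factors, 2.49% with cells weighted equally, 2.17% at most 5%, 2.29% at resolution 0.5, 2.28% with Y-linked UMIs only, 2.47% thinned and 0.148% over the mRNAs, where Cre_Pos had 0.118%. The 5 genes lower became 8 with size factors or cells weighted equally, 1 at a fold of 1.5 and 3 to 8 with an aliquot left out. In general capillary endothelium-like cells the mRNA ratio, -0.27, became -0.34 with cells weighted equally. The ratio of all 37 genes, -0.06, became -0.21 with Y-linked UMIs only and -0.27 over the mRNAs. The Cre_Neg share, 0.809%, became 0.873% with cells weighted equally, 0.851% with Y-linked UMIs only, 0.837% thinned and 0.0417% over the mRNAs, and the Cre_Pos share, 0.775%, became 0.837%, 0.733%, 0.805% and 0.0345%. The 4 genes lower became 0 at a fold of 1.5.

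The sign reversed for mt-Nd1 in general capillary endothelium-like cells with Y-linked UMIs only (0.059) and for the median of the nuclear pseudogene list in AT2-like cells without a minimum of UMIs (0.067). The cause was not tested. With an aliquot left out the mRNA ratio ran from -0.32 to -0.30 in AT2-like, -0.41 to -0.28 in ciliated-like and -0.30 to -0.26 in general capillary endothelium-like cells. Too few cells were left for a value with Y-linked UMIs only in 6 classes and with Xist UMIs only in ciliated-like cells, and other clusterings gave no matching class for Krt8 transitional-like, alveolar fibroblast-like cells or cluster 11. Depth limits the rare genes: mt-Nd6 had 10 UMIs in Cre_Pos ciliated-like cells.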
